A study of Homo sapiens with 8 samples.

Results

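The 9 genes of MHC class I presentation described here were the rows of the count table named HLA-B, HLA-C, HLA-E, B2M, TAP1, TAP2, TAPBP, NLRC5 and PSMB9. They were chosen by name and made up 9 of 58735 genes in the table, and all 9 were among the 14621 genes with enough counts to be tested. The RNA came from cells labelled A549, an established human non-small cell lung cancer line derived from a lung adenocarcinoma. In the empty vector (EV) group, 4 libraries came from cells given an empty lentiviral vector, and in the KRT19 group 4 libraries came from cells given a lentivirus with Flag-tagged KRT19, which encodes keratin 19, an intermediate filament protein. Per the study's methods, cells with either vector were selected with puromycin over several weeks into stable lines, so both groups carried a vector and the selection. No interferon treatment is named for either group. The sources used here do not say that the libraries of a group came from separate cultures or separate infections, so p-values measure only the spread between these libraries, which may be technical.

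MHC class I molecules carry short peptides made inside the cell to its surface, where T cells read them. Proteasomes cut proteins, the TAP1-TAP2 transporter moves the peptides into the endoplasmic reticulum, and tapasin (TAPBP) holds an empty molecule of heavy chain and beta-2-microglobulin (B2M) beside the transporter until a peptide is bound. NLRC5 is the transactivator that drives the promoters of most of these genes, and interferon gamma raises the pathway as a whole, including the inducible proteasome subunit PSMB9. Lung cancers are known to lower this pathway in some cases, and the comparison shows whether the 9 transcripts differed when KRT19 was overexpressed.

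The promoters are shown because they carry the shared elements through which these genes are known to be controlled together. RefSeq sequences (GRCh38.p14) were found for 7 of the 9 genes, all but HLA-E and NLRC5. For HLA-B (chr6:31357180-31357429, minus strand), HLA-C (chr6:31272093-31272342, minus strand), B2M (chr15:44711267-44711516, plus strand), TAP1 (chr6:32853705-32853954, minus strand, the start nearest to PSMB9) and PSMB9 (chr6:32853942-32854191, plus strand), the 250 bases before the start read as follows, 5′ to 3′. Capitals mark every match, on either strand, to CCAAT (bound by NF-Y), TGACG (the core of ATF and CREB elements), GAAANNGAA (interferon response type) and GGGNNTTCC (NF-kB type), and matches that overlap run together.
HLA-B: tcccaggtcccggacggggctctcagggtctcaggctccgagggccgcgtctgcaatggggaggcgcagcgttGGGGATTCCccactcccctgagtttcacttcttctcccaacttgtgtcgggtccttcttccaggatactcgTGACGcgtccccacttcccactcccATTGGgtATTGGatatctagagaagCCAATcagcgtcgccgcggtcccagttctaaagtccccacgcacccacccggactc
HLA-C: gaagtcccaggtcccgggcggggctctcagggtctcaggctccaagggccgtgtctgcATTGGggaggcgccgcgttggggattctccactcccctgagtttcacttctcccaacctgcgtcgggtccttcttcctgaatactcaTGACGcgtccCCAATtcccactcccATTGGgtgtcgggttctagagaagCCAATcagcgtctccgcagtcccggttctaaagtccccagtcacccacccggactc
B2M: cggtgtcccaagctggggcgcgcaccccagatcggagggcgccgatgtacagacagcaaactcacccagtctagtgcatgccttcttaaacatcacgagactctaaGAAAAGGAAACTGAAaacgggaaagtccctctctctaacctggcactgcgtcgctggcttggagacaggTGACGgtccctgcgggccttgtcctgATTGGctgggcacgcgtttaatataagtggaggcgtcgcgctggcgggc
TAP1: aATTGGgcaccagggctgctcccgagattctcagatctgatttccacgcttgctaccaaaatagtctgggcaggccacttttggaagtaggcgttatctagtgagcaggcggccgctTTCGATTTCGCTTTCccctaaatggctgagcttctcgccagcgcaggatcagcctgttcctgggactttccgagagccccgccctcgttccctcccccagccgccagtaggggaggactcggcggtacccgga
PSMB9: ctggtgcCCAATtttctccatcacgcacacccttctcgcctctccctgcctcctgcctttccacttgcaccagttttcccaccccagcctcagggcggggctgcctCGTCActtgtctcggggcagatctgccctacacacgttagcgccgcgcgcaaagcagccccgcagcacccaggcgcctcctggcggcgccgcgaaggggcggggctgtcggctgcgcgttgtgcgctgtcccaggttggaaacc

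In both HLA-B and HLA-C a TGACG match was followed by CCAAT matches nearer the start. HLA-B had 3 CCAAT matches, 1 TGACG and 1 GGGNNTTCC, while HLA-C had 4 CCAAT matches and 1 TGACG and no match to the other strings. B2M had 1 CCAAT, 1 TGACG and a pair of overlapping GAAANNGAA matches, first found 144 and 138 bases before the start. The TAP1 and PSMB9 starts lay 488 bases apart in opposite directions, and their windows overlapped in a short stretch that held 1 CCAAT match common to both. Apart from it, TAP1 had 2 overlapping GAAANNGAA matches and PSMB9 had 1 TGACG. Not printed, TAP2 had 1 TGACG and 1 GAAANNGAA, and TAPBP had 2 overlapping GAAANNGAA matches and 1 GGGNNTTCC. The window of another TAP1 start, 1431 bases from the PSMB9 start and also not printed, had no match to any of the strings. Among 35116 promoter windows of the same length, 32.0% held CCAAT, 21.2% TGACG, 6.88% GAAANNGAA and 5.78% GGGNNTTCC. A match describes the reference letters only, and the alleles of these cells were not read. Only these exact strings were searched, so a window without a match may still hold an element of that type in other letters.

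The libraries held between 14073065 and 17054364 counts. KRT19 had 1 to 5 counts in the EV libraries and 4353 to 5147 in the KRT19 libraries, so the overexpressed gene followed the labels. KRT19 replicate 3 stood apart over all tested genes: a chi-square per degree of freedom of its counts against the other KRT19 libraries gave 7.71 to 13.6, where the other KRT19 pairs gave 2.78 to 3.76 and the EV pairs 3.13 to 6.49. Without it, 0 of the 9 members passed either threshold used below, and their median log2 fold change was -0.012. The 9 genes together took between 0.0897% and 0.101% of the counts of a library. The labelled cell type was checked against markers, and several went against it. EPCAM and CDH1, expressed by epithelial cells, had at most 3 and 1 counts in a library, AKR1C3, ALDH1A1 and ALDH3A1, NRF2 targets known to be high in A549, had at most 2, 3 and 4, and SFTPB and SFTPC were at 0. Of the other NRF2 targets, AKR1B10 had 1 to 14 counts, and AKR1C1 and AKR1C2 stood at 0.976 ± 0.265 and 1.47 ± 0.374 CPM in the EV group (CPM, counts scaled to a common library size; SD, n = 4), while GCLM (51.4 ± 7.14), NQO1 (439 ± 11.0) and TXNRD1 (805 ± 18.4) were higher. Among the keratins, KRT7 was at 3.54 ± 0.580, KRT8 at 221 ± 10.1 and KRT18 at 314 ± 10.8 CPM in the EV group. CDKN2A stood at 103.5 ± 6.41 CPM and its neighbour MTAP at 46.1 ± 3.58 CPM in the EV group, although A549 is known for a homozygous loss there. The label on RNA extraction names retina, but RCVRN and SAG were at 0 and 8 of 12 retina markers had at most 3 counts in any library. Of 12 leukocyte markers, which matter here because leukocytes express class I genes strongly, 9 had at most 3 counts, PTPRC at most 1, and their summed level ranged from 0.997 to 1.87 CPM over the EV libraries and from 1.70 to 2.44 CPM over the KRT19 libraries, with ITGAM at 0.948 ± 0.342 against 1.44 ± 0.279 CPM. The part these markers have in the results below was not tested, and the cells are called by their label throughout.

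No member differed between the groups beyond the spread of the libraries. By edgeR's quasi-likelihood test with Benjamini-Hochberg adjustment over all genes tested, 0 of the 9 passed an adjusted p of 0.05, where 0.00684% of all genes did, which is KRT19 alone. At an unadjusted p under 0.05 the count was again 0 of 9, against 5.41% of all genes, and DESeq2 and limma voom with library quality weights also gave 0 of 9 at that threshold. EV and KRT19 libraries overlapped for all 9 genes, while 3.42% of all genes showed no overlap. The log2 fold change of KRT19 against EV was below 0 for 7 members and above 0 for 2 (47.8% of all genes were below 0), with a median of -0.040 against 0.0051 for all genes. The 95% intervals, which are not adjusted for the number of genes, all lay between 0.699-fold and 1.22-fold. In bulk RNA, fewer cells of a kind and less RNA per cell cannot be told apart.

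**Figure D1:**
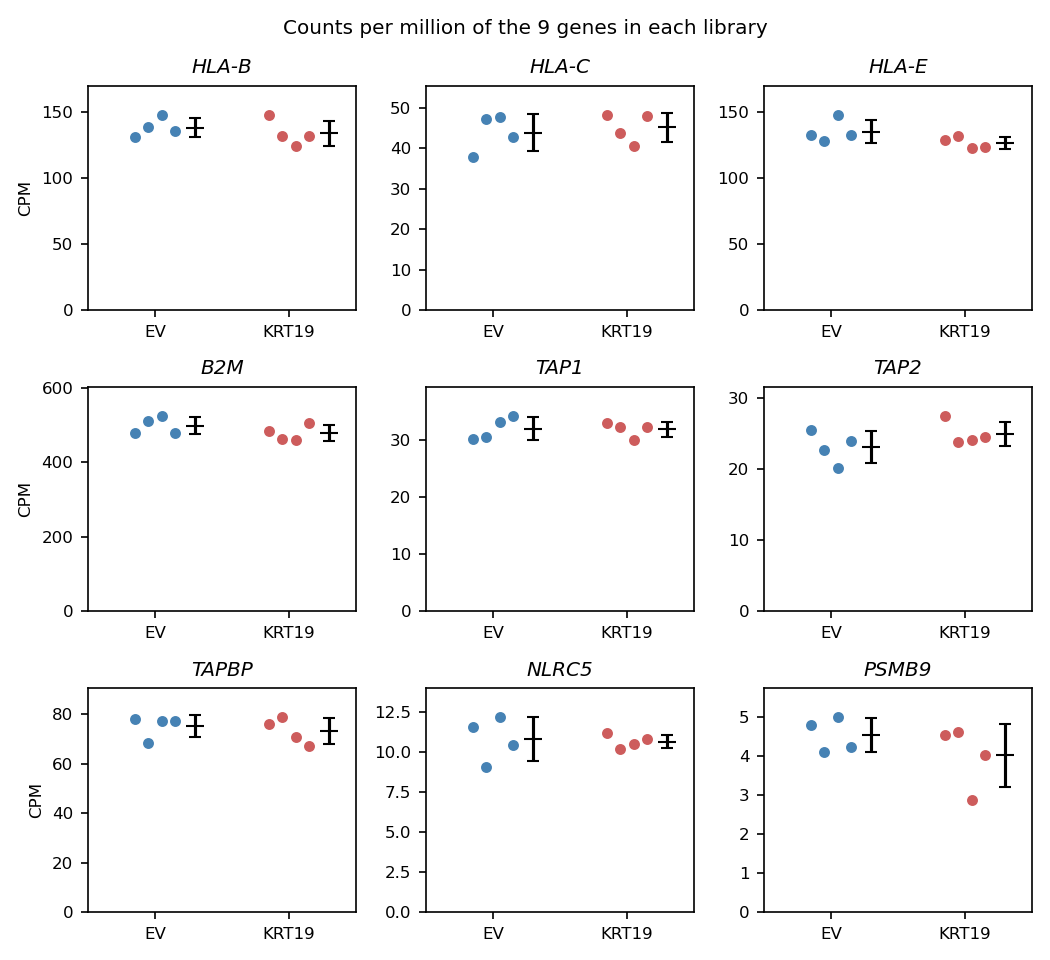
CPM (vertical axes, from 0) of each gene in the 4 EV and 4 KRT19 libraries, in order of replicate number from left to right; the bar beside the points is the mean with the SD. The groups overlap in all 9 panels, and KRT19 replicate 3 is the lowest point for HLA-B, HLA-E, B2M, TAP1 and PSMB9.

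The classical heavy chain gene HLA-B (ENSG00000234745, chr6:31269491-31357188 in the table, GRCh38) presents peptides to cytotoxic T cells. Its level was 131, 139, 147 and 135 CPM in EV replicates 1 to 4 and 147, 132, 124 and 132 CPM in KRT19 replicates 1 to 4. The highest EV and the highest KRT19 library were level with each other, and the lowest was KRT19 replicate 3. The means were 138 ± 7.01 and 134 ± 9.67 CPM (SD, n = 4), a log2 fold change of -0.046 ± 0.059 (SE, edgeR adjusted p = 0.952) with a 95% interval of -0.17 to 0.078. The gene model shares 17.8% of its exon bases with AL671883.2 on the opposite strand, and reads from either could not be told apart without strand.

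HLA-C (ENSG00000204525, chr6:31268749-31272130), the other classical heavy chain among the 9, is also a main ligand of killer cell receptors. It stood at 37.9, 47.2, 47.8 and 42.7 CPM in the EV libraries and at 48.2, 43.8, 40.6 and 48.0 CPM in the KRT19 libraries. EV replicate 1 was the lowest of the 8, and 2 KRT19 libraries were slightly above every EV library. With means of 43.9 ± 4.61 and 45.2 ± 3.63 CPM, the log2 fold change was 0.040 ± 0.078 (edgeR adjusted p = 0.966, 95% interval -0.12 to 0.20), and it became -0.023 without EV replicate 1.

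HLA-E (ENSG00000204592, chr6:30489467-30494205) is a nonclassical heavy chain that shows leader peptides of other class I chains to the NKG2A receptor of natural killer cells. The EV libraries had 133, 128, 148 and 132 CPM and the KRT19 libraries 129, 132, 123 and 123 CPM. EV replicate 3 was the highest, KRT19 replicates 3 and 4 were the lowest, and the rest lay within a few CPM of each other. The change from 135 ± 8.56 to 127 ± 4.29 CPM had the lowest p of the 9 genes before adjustment (edgeR adjusted p = 0.906), with a log2 fold change of -0.094 ± 0.055 and a 95% interval of -0.21 to 0.022.

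Because the heavy chain genes are related, HLA-B, HLA-C and HLA-E were also summed into 1 feature. Of the 75-base words of each gene, 14.2% for HLA-B (nearly all of them in AL671883.2), 1.30% for HLA-C and 1.68% for HLA-E also occurred in another gene. The sum came to 317 ± 17.9 CPM for EV and to 306 ± 14.9 CPM for KRT19, a log2 fold change of -0.054 ± 0.052 with a 95% interval of -0.16 to 0.057 (edgeR adjusted p = 0.927). The HLA-B to HLA-C ratio per length averaged 2.60 in EV and 2.44 in KRT19 libraries, a difference of -0.091 on the log2 scale (exact permutation p = 0.229, two-sided, adjusted p = 0.393 over 5 ratios). The smallest p that 4 libraries against 4 allow is 0.0286. The size of the ratio depends on the length used: HLA-B stood at 225% to 284% of HLA-C by summed exon length and at 333% to 420% by the longest transcript. Reads of alleles unlike the reference may also be missing from either gene. In the list of 3 other heavy chain genes, 2 could be tested and neither passed either threshold.

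B2M (ENSG00000166710, chr15:44711487-44718877) encodes the light chain that every heavy chain needs to reach the surface. It had 479.7, 512, 524 and 478 CPM in EV libraries and 485, 462, 459.6 and 506 CPM in KRT19 libraries. The upper pair of EV libraries exceeded all KRT19 libraries, and the other EV pair lay inside the KRT19 range. From 498 ± 23.0 to 478 ± 22.0 CPM, the log2 fold change was -0.059 ± 0.049 (edgeR adjusted p = 0.920) and its 95% interval, -0.16 to 0.045, was the narrowest of the 9.

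TAP1 and TAP2 encode the subunits of the peptide transporter. TAP1 (ENSG00000168394, chr6:32845209-32853978) was measured at 30.3, 30.6, 33.2 and 34.2 CPM in the EV group and at 33.0, 32.5, 30.0 and 32.4 CPM in the KRT19 group. Its KRT19 values fell almost wholly inside the EV range, and the means of 32.1 ± 1.96 and 32.0 ± 1.32 CPM gave the log2 fold change closest to 0 of the members (-0.0063 ± 0.065, 95% interval -0.14 to 0.13, edgeR adjusted p = 0.993).

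For its partner TAP2 (ENSG00000204267, chr6:32821833-32838780), EV libraries had 25.5, 22.8, 20.2 and 24.0 CPM and KRT19 libraries 27.5, 23.9, 24.2 and 24.6 CPM. KRT19 replicate 1 was the highest and EV replicates 2 and 3 were the lowest. TAP2 had the highest log2 fold change of the 9 genes, 0.12 ± 0.080, with means of 23.1 ± 2.26 and 25.0 ± 1.66 CPM, a 95% interval of -0.052 to 0.29 and an edgeR adjusted p of 0.906. The TAP1 to TAP2 ratio per length was 1.86 in EV and 1.70 in KRT19 libraries on average (log2 difference -0.12, exact permutation p = 0.314, adjusted p = 0.393). Over all libraries TAP1 stood at 158% to 219% of TAP2 by summed exon length and at 228% to 316% by the longest transcript. TAP2 shares 32.3% of its exon bases on the same strand with the gene model AL669918.1, so its counts depend on how such reads were assigned, which is not given in the sources used here.

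TAPBP (ENSG00000231925, chr6:33299694-33314387) encodes tapasin, the bridge between TAP and the empty class I molecule. The EV libraries stood at 78.0, 68.5, 77.2 and 77.3 CPM and the KRT19 libraries at 76.1, 78.7, 71.0 and 67.0 CPM. In the EV group 3 libraries were nearly equal and replicate 2 stood below them, and in the KRT19 group replicates 3 and 4 were low. The log2 fold change was -0.040 ± 0.063 (75.3 ± 4.50 against 73.2 ± 5.26 CPM, 95% interval -0.17 to 0.094, edgeR adjusted p = 0.958).

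NLRC5 (ENSG00000140853, chr16:56989485-57083531), the class I transactivator, had 151 to 200 counts in EV and 143 to 185 in KRT19 libraries. In CPM this was 11.6, 9.08, 12.2 and 10.4 in EV and 11.2, 10.2, 10.5 and 10.8 in KRT19 libraries, so all KRT19 values lay within the EV range. The log2 fold change was -0.020 ± 0.10 (10.8 ± 1.36 against 10.6 ± 0.426 CPM, 95% interval -0.24 to 0.20, edgeR adjusted p = 0.983).

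PSMB9 (ENSG00000240065, chr6:32844136-32859585), the inducible subunit that takes the place of PSMB6 in the immunoproteasome, was the member with the fewest counts, 68 to 82 in EV and 49 to 75 in KRT19 libraries. Its CPM were 4.78, 4.09, 4.98 and 4.23 in EV and 4.52, 4.62, 2.86 and 4.03 in KRT19 libraries. KRT19 replicate 3 was the lowest library, and the others overlapped. PSMB9 had the largest log2 fold change in size, -0.18 ± 0.16, and the widest 95% interval, -0.52 to 0.16 (4.52 ± 0.429 against 4.01 ± 0.804 CPM, edgeR adjusted p = 0.923). Without KRT19 replicate 3 the log2 fold change was -0.041.

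**Figure D2:**
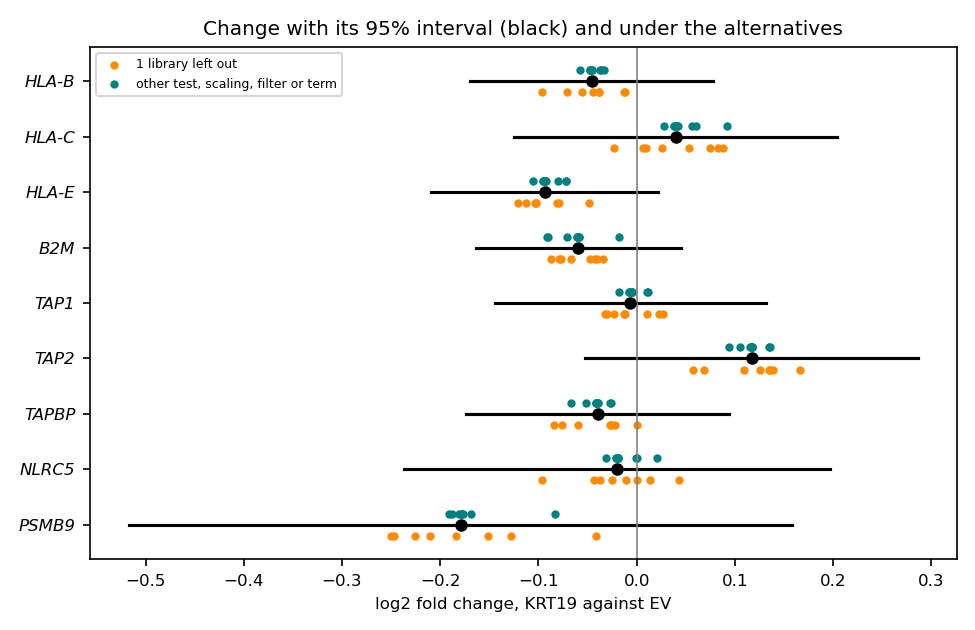
Log2 fold change of KRT19 against EV (horizontal axis) for each gene: black point and line, edgeR estimate with its 95% interval; coloured points, the estimate under each alternative. Every black interval crosses 0, and PSMB9 has the widest interval, -0.52 to 0.16.

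Levels were ordered per length, from counts against the reference genome. The alleles of these cells were not read, and reads unlike the reference may be missing from the counts, which was not tested. B2M averaged 80.3 CPM per kb of summed exon length, HLA-B 44.6, HLA-E 44.0, HLA-C 17.8, TAPBP 14.7, TAP1 6.67, TAP2 3.77, PSMB9 1.39 and NLRC5 0.865. The libraries of B2M (75.6 to 86.2 CPM per kb) were all above those of the heavy chains, and TAP1 (6.25 to 7.13) was above TAP2 (3.16 to 4.30) in every library. HLA-B and HLA-E could not be ordered, since HLA-B was higher in 3 of 8 libraries. HLA-C and TAPBP overlapped (HLA-C higher in 7 of 8), as did PSMB9 and NLRC5 (PSMB9 higher in 8 of 8 within a library). The length matters for this order: per kb of the longest transcript, HLA-B was at 80.5 to 95.3 CPM and HLA-E at 47.3 to 56.8 CPM, with no overlap, while B2M was at a mean of 203 CPM per kb. On that scale PSMB9 (1.07 to 1.86 CPM per kb) and NLRC5 (1.33 to 1.78) had means of 1.59 and 1.57 and could not be ordered.

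**Figure D3:**
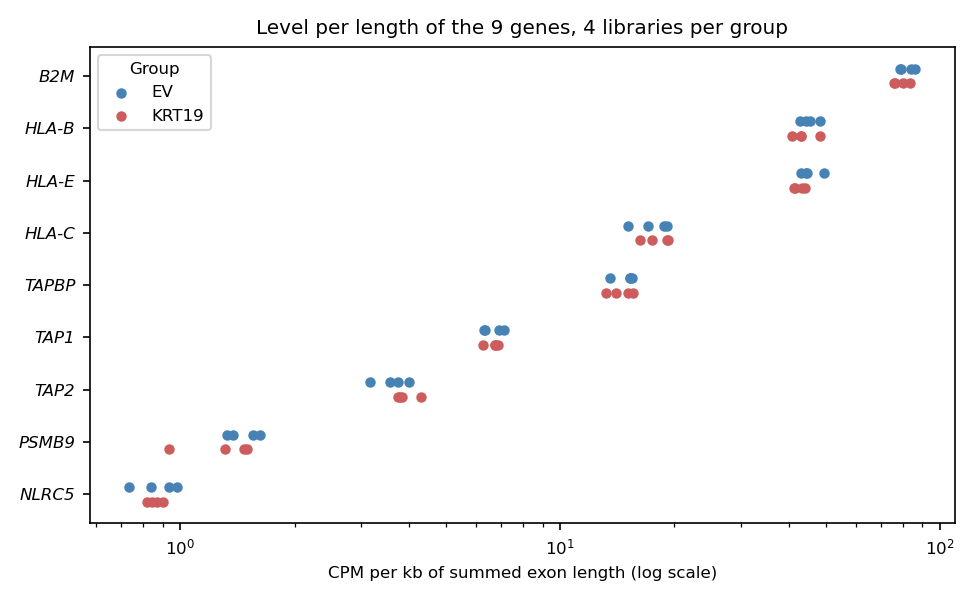
CPM per kb of summed exon length (horizontal axis, log scale) of each gene in each library, EV above and KRT19 below on each line. B2M is highest at 75.6 to 86.2, the HLA-C and TAPBP points overlap, and NLRC5 and PSMB9 are lowest.

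The 9 transcripts did not vary as a block. Over the 8 libraries, 26 of the 36 pairs of members had a positive Pearson r of log2 CPM, with a median of 0.34 and a range of -0.64 to 0.70, and after removal of the group means 27 pairs were positive with a median of 0.29. These are descriptions over 8 libraries that share depth and library quality. HLA-E and PSMB9 had the highest r (0.70) and HLA-E and TAP2 the lowest (-0.64), but after removal of the group means these were HLA-C and B2M (0.86) and B2M and TAPBP (-0.51). EV replicate 3 was the highest library for 5 of the 9 genes, and KRT19 replicate 3, which stood apart over all genes, the lowest for 5. The 9 genes summed to 961 ± 37.6 CPM for EV and 929 ± 33.6 CPM for KRT19. Among 10813 other genes with a mean of at least 5 CPM, those whose log2 CPM most resembled the members' mean standardized level over the 8 libraries included STYXL1 (r = 0.984), HDAC3 (r = 0.982), NR1D1 (r = 0.977) and FDFT1 (r = 0.977).

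The inducible proteasome subunits were at 2.15% or less of the level per length of the constitutive subunits they replace. Per length, PSMB9 stood at 0.692% to 1.21% of PSMB6 over the 8 libraries, PSMB8 at 1.33% to 2.15% of PSMB5 and PSMB10 at 0.381% to 0.626% of PSMB7. The PSMB9 to PSMB6 ratio averaged 0.0105 in EV and 0.00871 in KRT19 libraries (log2 difference -0.27, exact permutation p = 0.143, adjusted p = 0.393). For PSMB8 to PSMB5 the difference was 0.0034 (exact permutation p = 0.971), and for PSMB10 to PSMB7 it was 0.18 (exact permutation p = 0.314, adjusted p = 0.393). None of the 3 ratios thus differed beyond the spread, and the groups overlapped in each.

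**Figure D4:**
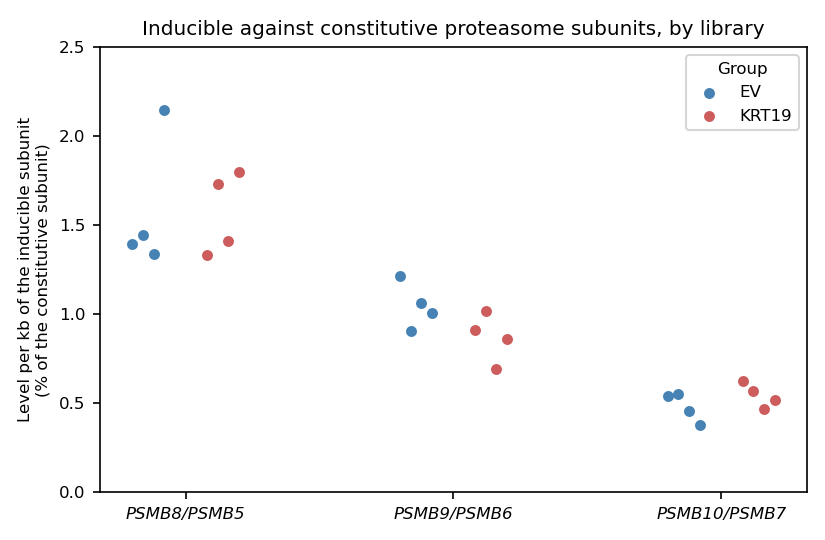
Level per kb of each inducible proteasome subunit as a percentage of the constitutive subunit it replaces (vertical axis, from 0), 1 point per library. All points lie between 0.381% and 2.15%, and the EV and KRT19 points overlap for each pair.

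Other genes of the pathway were described from lists, with counts and medians beside the 5.41% of all genes at an unadjusted p under 0.05 and the 3.42% with no overlap, and no listed gene passed the adjusted threshold. Of 9 partners of loading in the endoplasmic reticulum, 0 reached an unadjusted p of 0.05 and the median log2 fold change was -0.030. The chaperones CANX (917 ± 27.6 against 926 ± 68.1 CPM) and HSPA5 (778 ± 23.9 against 761 ± 29.1 CPM) were the most abundant of them. All 14 genes of the constitutive 20S proteasome were tested, with 0 at that threshold and a median of 0.029. Among 4 other inducible proteasome genes the count was also 0, and the proteasome activator gene PSME1 stood at 84.0 ± 4.03 against 80.9 ± 2.92 CPM. Of 7 cytosolic peptidases, which trim or destroy peptides, 2 reached that unadjusted threshold: NPEPPS had a log2 fold change of -0.11 ± 0.048 (edgeR adjusted p = 0.906, groups not overlapping) and BLMH one of 0.15 ± 0.066 (edgeR adjusted p = 0.906).

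Genes for factors known to bind class I promoters were expressed in both groups. Of 8 such genes, 4 were above and 4 below 0 with a median of 0.00090, and ATF1 alone reached an unadjusted p under 0.05 (33.4 ± 1.77 against 38.1 ± 5.44 CPM, log2 fold change 0.19 ± 0.085, edgeR adjusted p = 0.906). NFYC and RFX5 were the most abundant of the 8, and RFX5, the DNA-binding subunit of the complex that works with NLRC5, stood at 67.7 ± 1.80 against 62.8 ± 2.18 CPM with no overlap (edgeR adjusted p = 0.906). Of 17 tested genes of interferon and NF-kB signalling, 0 reached that threshold and the median was -0.0074. JAK1 (158 ± 3.49 against 161 ± 7.77 CPM) and RELA (116 ± 3.65 against 114 ± 5.96 CPM) were the most abundant. The interferon gene list was at the floor, with 5 of 6 at 0 counts in every library and IFNL2 at 1 count in a single library. Of 23 interferon-stimulated genes, 16 could be tested, 7 above and 9 below 0 with a median of -0.016 and 0 at the unadjusted threshold, and ISG15 was at 26.5 ± 2.60 against 26.0 ± 1.63 CPM. Of 6 negative regulators of class I, SUZ12, EZH2 and EED of Polycomb complex PRC2 included, 5 were above 0 with a median of 0.094 and 0 at the unadjusted threshold. SUSD6, part of a complex known to lower surface class I, showed no overlap (14.4 ± 0.250 against 15.7 ± 0.487 CPM, edgeR adjusted p = 0.906).

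**Figure D5:**
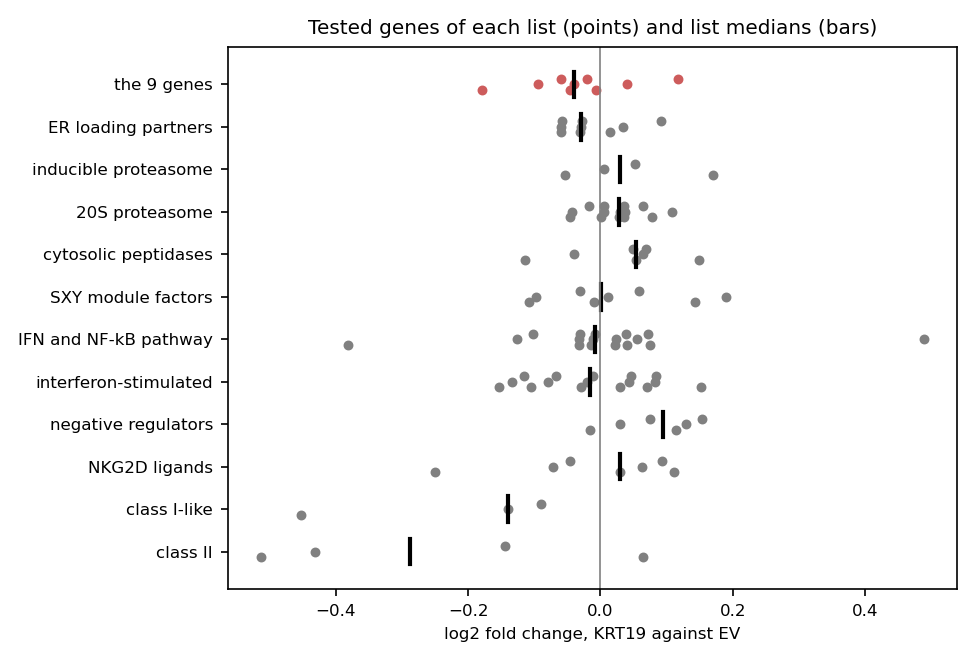
Log2 fold change of KRT19 against EV (horizontal axis) of every tested gene in 12 lists, the 9 genes on top in red; black bars are the list medians. Immune ligands and cell type markers are not drawn. Most points lie close to 0, and of the lists drawn class II, whose genes had low counts, reaches furthest below it at -0.51.

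Among molecules related to class I, 3 of 4 class I-like genes were tested and all were below 0, with a median of -0.14. The only one at an unadjusted p under 0.05 was MR1, which shows vitamin B metabolites to innate-like T cells, with 3.79 ± 1.00 against 2.75 ± 0.500 CPM (log2 fold change -0.45 ± 0.20, edgeR adjusted p = 0.906). HFE, a regulator of iron uptake, showed no overlap (40.8 ± 0.945 against 38.3 ± 1.20 CPM), and FCGRT, the neonatal Fc receptor, stood at 22.1 ± 1.60 against 20.1 ± 0.823 CPM. Of 7 tested ligands of the NKG2D receptor, 0 reached an unadjusted p of 0.05, the median was 0.030, and MICB (117 ± 1.29 against 122 ± 8.74 CPM) and MICA (105 ± 4.26 against 100.2 ± 3.97 CPM) were the most abundant. Of the class II genes 4 of 12 had enough counts to be tested, 3 below and 1 above 0 with a median of -0.29, and 2 of the 4, HLA-DMA and CD74 (1.25 ± 0.129 against 0.918 ± 0.260 CPM), showed no overlap (3.42% of all genes). HLA-DMA alone was at an unadjusted p under 0.05 with 1.86 ± 0.260 against 1.29 ± 0.154 CPM (edgeR adjusted p = 0.906), and their transactivator CIITA stood at 2.75 ± 0.246 against 2.90 ± 0.720 CPM. Of 4 tested ligands of immune receptors, 0 reached an unadjusted p of 0.05 and the median was -0.034. The PD-L1 gene CD274 had 1.24 ± 0.442 against 0.831 ± 0.193 CPM (edgeR adjusted p = 0.906), and NECTIN2 and PVR were the most abundant at 174 ± 7.34 and 115 ± 2.62 CPM in the EV group.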

How the data were processed

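RNA-seq was carried out on 8 libraries, 4 EV and 4 KRT19, grouped by the sample titles. The authors deposited raw read counts per gene, without normalization. The submitters' processing notes name Bowtie 0.12.2, featureCounts 1.5.0-p3, DESeq2 and the build hg38, with no role or order. The handling of strand and of reads matching several genes is not given in the sources used here, so overlapping gene models carry uncertain counts. The gene length deposited by the authors matched the summed exon length in GENCODE 29 for the 9 genes.

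Group differences came from edgeR 4.0.16 (R 4.3.3), with filterByExpr, TMM scaling, glmQLFit and glmQLFTest over all 8 libraries, two-sided, with Benjamini-Hochberg adjustment over 14621 genes and a threshold of 0.05. The study stated a p of 0.05 without an adjustment, so both counts are given. CPM used TMM-scaled library sizes, and log2 CPM a prior count of 2. Intervals are 95% intervals from the quasi-likelihood fit. Log2 ratios per length were compared by an exact permutation test. Depth was 14073065 to 17054364 counts, and 3 counts, the limit that a count of 0 allows, came to 0.175 to 0.213 CPM. Such limits cover counting error only. Replicate libraries of a group differed by more than counting noise over all genes, so none was counted as a duplicate.

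Alternatives were DESeq2 1.42.0, limma 3.58.1 voom with library quality weights, other scalings and filters, a replicate block, GC and length terms, and leaving out each library. Levels and ratios per kb of the longest transcript were added after seeing the data. The script was tested on simulated data. The members and the gene lists were chosen with earlier results of these data known. Genes named were the 9 members, KRT19, in each list those at an unadjusted p under 0.05 and the 2 of highest mean CPM, and the 5 most alike genes. Other listed genes, such as those whose groups did not overlap, markers, SUSD6, PSME1, CIITA and CD274, were named after their values were seen. Some genes that this rule or the lists hold were counted and are not reported here.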

Additional observations from a re-analysis of the deposited data

Results flagged for a closer look

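Of 32 groups of 4 libraries examined for a library far from the others, 2 were found, and chance gives about 1 in 20. In the EV group, log2 CPM of TAPBP was 6.10 in replicate 2 against 6.27 to 6.29 in the other libraries, a gap of 0.914 of the range. In the same group, the log2 ratio of PSMB8 to PSMB5 was -5.54 in replicate 4 against -6.22 to -6.11 in the others, a gap of 0.842 of the range. The cause was not tested in either case.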

How the results depend on the processing

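Under 17 alternatives, 0 members passed the adjusted threshold and 0 reached an unadjusted p under 0.05, and the median log2 fold change of the members stayed between -0.060 and -0.012. HLA-B, HLA-E, B2M, TAP2, PSMB9 (not fitted under the stricter filter) and the heavy chain sum kept their direction, but with 1 library left out HLA-B ranged from -0.096 to -0.012, HLA-E from -0.12 to -0.048, B2M from -0.088 to -0.034 (-0.018 with voom and quality weights), TAP2 from 0.057 to 0.17, PSMB9 from -0.25 to -0.041 and the sum from -0.084 to -0.014. NLRC5 turned to 0.021 with voom and quality weights and 0.00027 with GC and length terms, and ranged from -0.096 to 0.043 with 1 library left out. TAP1 turned to 0.010 with GC and length terms and 0.012 with these and the replicate block, and ranged from -0.032 to 0.027 with 1 library left out. Likewise HLA-C ranged from -0.023 to 0.088, TAPBP from -0.084 to 0.00020 and the log2 ratio differences from -0.067 to 0.16 for PSMB8 to PSMB5, -0.35 to -0.17 for PSMB9 to PSMB6 (-0.17 without KRT19 replicate 3), 0.075 to 0.26 for PSMB10 to PSMB7, -0.20 to -0.041 for TAP1 to TAP2 and -0.12 to -0.047 for HLA-B to HLA-C. The last had an exact permutation p of 0.0286 (adjusted p = 0.143) without EV replicate 2 and of 0.457 without EV replicate 1. Over all genes, 1 passed the adjusted threshold (KRT19), against 5 with DESeq2, 8 with weighted voom, 71 with the looser filter, 5 with GC and length terms, 5 with these and the replicate block, and 1 to 5 with 1 library left out (5 without KRT19 replicate 3 and 3 without EV replicate 1). Unadjusted, 791 genes became 1337 with weighted voom, 1559 with the looser filter, 1226 with GC and length terms, and 620 to 1228 with 1 library left out. With the replicate block alone, 1 gene passed the adjusted threshold and 451 the unadjusted one. Same-numbered libraries showed no shared deviation (correlations -0.159 to 0.0567), which cannot exclude that they were handled together, and the sample titles do not say. The cause of these changes was not tested. Depth limits PSMB9 most, at 49 to 82 counts a library.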
